A study of Rattus norvegicus with 4 samples.

Results

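The sympathoadrenal transcription factor genes are a set of 9 rat genes, Phox2a, Hand1, Hand2, Gata2, Gata3, Insm1, Isl1, Sox11 and Rest, taken by name. A probe belonged to one of them if its RefSeq accession is assigned to that gene. This gave 10 probes for 8 genes out of 41012 probes, and 8 of the 25356 genes tested. Insm1 had no probe with such an accession and is not analysed here. The arrays hold total RNA that the labels give as that of PC12 cells, a rat line from a pheochromocytoma, the tumour of adrenal chromaffin cells. A line transfected with a plasmid coding for MAX was set against a line transfected with an empty vector, and the labels give nucleofection and E418 selection for both. A group is a single transfected line, with 2 arrays from passages 8 and 13. Every p-value thus rests on the spread between arrays of a line and not between transfections. For the MAX vector this spread mixes passage with slide and scan, since its 2 arrays lay on different slides and were scanned apart. PC12 cells are known to lack functional MAX, the partner through which MYC proteins bind DNA, and this lack is shared by both lines before transfection. The comparison asks what a MAX plasmid changes in chromaffin features, which the title of the series names.

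Neural crest cells that become sympathetic neurons and chromaffin cells pass through a shared set of transcription factors. The homeodomain factor PHOX2A, the basic helix-loop-helix factors HAND1 and HAND2 and the zinc finger factors GATA2 and GATA3 act together to switch on and maintain noradrenergic genes such as those for tyrosine hydroxylase and dopamine beta-hydroxylase. The LIM homeodomain factor ISL1 and the SoxC factor SOX11 are known for growth and differentiation of sympathetic precursors. REST acts in the other direction, as a repressor that keeps neuronal genes with an RE1 element off in non-neuronal cells.

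All values are log2 processed signals minus the array's 75th percentile, so 0 is the level that 75% of probes do not exceed. A probe is well above background where the scanner software found its spot clearly brighter than its surroundings, which held for 64.5% to 71.6% of probes per array. Saturation was found at 0 spots. MAX vector replicate 1 was hybridised on slide 2 and the other 3 arrays on slide 1. The 1 probe for Max was well above background on 0 of 4 arrays, and where it lies relative to the plasmid is not known here, so it checks no label. The label of a chromaffin tumour line was set against 10 chromaffin markers, 9 of which had a probe. Of these, 7 were well above background on all 4 arrays, 3 of them genes of the set itself (Phox2a, Gata3 and Hand2), while Dbh and Slc18a1, which encode dopamine beta-hydroxylase and a vesicular monoamine transporter, were so on 1 of 2 MAX vector arrays and on both empty vector arrays. Of the 25356 genes tested, each well above background on at least 2 arrays, 22822 were so on all 4, so 7 of 9 is not a high share. The signals of the 9 chromaffin markers summed to 10.7 and 10.6 times the 75th percentile with the MAX vector. With the empty vector they summed to 19.1 and 19.2 times. Most of this sum was Ddc, with 7.75 and 7.68 for the MAX vector and 16.3 and 16.4 for the empty vector, and the other 8 genes together had 2.95 and 2.89 for the MAX vector and 2.81 and 2.83 for the empty vector. Chga, the gene of the granule protein chromogranin A, had log2 levels of -4.36 and -3.31 with the MAX vector and -3.53 and -3.99 with the empty vector. Chga, Chgb and Dbh lay below the median probe on every array. Whether the RNA is that of the labelled line was not tested. All 4 fibroblast markers with a probe, Col1a2, Col3a1, Dcn and Lum, were well above background on every array. Their summed signal was 135 and 144 times the 75th percentile in the MAX vector group and 128 and 141 times in the empty vector group, and it came mostly from the collagen gene Col3a1, at log2 levels of 7.07 and 7.16 with the MAX vector and 6.98 and 7.12 with the empty vector. Of 8 Schwann cell markers with a probe, 4 were well above background on every array, among them Sox10, Pmp22 and Mbp, and S100b and Erbb3 on none, and the sums were 16.4 and 15 with the MAX vector and 24.3 and 22.3 with the empty vector, nearly all of it Pmp22, while the rest summed to 0.515 and 0.656 with the MAX vector and 0.578 and 0.644 with the empty vector. Of 6 macrophage markers, Cd68, Csf1r and Cd14 were well above background on every array and Aif1 and Itgam on none, with sums of 9.07 and 8.83 in the MAX vector group and 4.88 and 5.62 in the empty vector group. Most of these was Cd14, at 8.4 and 7.65 with the MAX vector and 4.23 and 4.88 with the empty vector, and Csf1r overlapped between the groups. Of 6 adrenal cortex markers, Star, Cyp11a1 and Hsd3b1 were well above background on every array and Cyp11b1 and Cyp11b2 on none, with sums of 0.226 and 0.357 with the MAX vector and 0.218 and 0.22 with the empty vector. Of 3 endothelial markers only Kdr was so, with Pecam1 and Emcn on none and sums of 0.0814 and 0.114 with the MAX vector and 0.0294 and 0.0329 with the empty vector. The part of these other markers in the results below was not tested.

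Phox2a, Hand2, Hand1 and Gata3 had lower signals on both MAX vector arrays than on either empty vector array, while Gata2, Isl1, Sox11 and Rest overlapped between the groups. Phox2a showed the largest difference, at 0.6 times the empty vector level. After adjustment over all genes, limma called 0 of the 8 at the 0.05 threshold, and it called 0.84% of all genes tested. At an unadjusted p under 0.05 there were 2, Phox2a and Hand2, both lower, against 16.1% of all genes in either direction, 8.21% lower and 7.93% higher. The count of 4 of 8 with lower, non-overlapping values stands against 26% of all genes, and the count of 0 of 8 with higher ones against 24.2%. In either direction it was 4 of 8 against 50.2%, so the share of separated genes was near that of the whole array. The median log2 fold change of the 8 genes was -0.10, and that of all genes tested was -0.019. In bulk RNA, fewer cells of a type and less RNA per cell cannot be told apart.

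**Figure D1:**
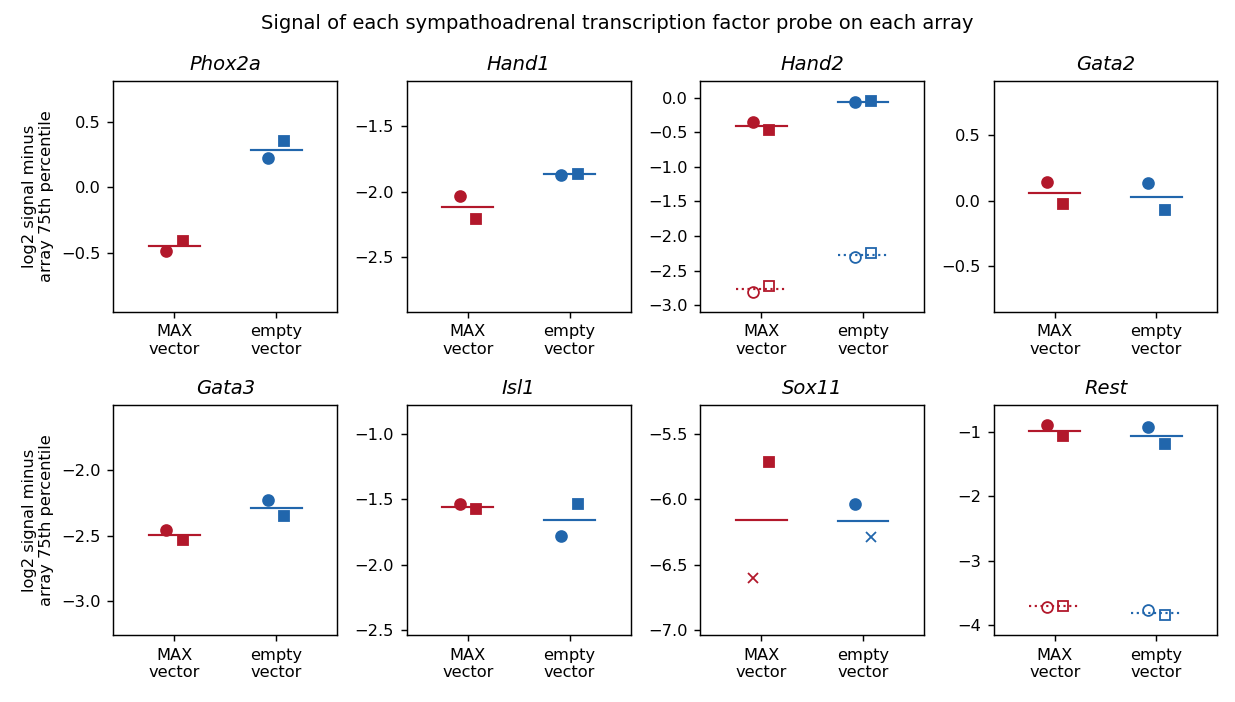
Log2 signal minus the array's 75th percentile (vertical axis) of each probe in MAX vector cells (red, left) and empty vector cells (blue, right); circles are replicate 1, squares replicate 2, crosses arrays where the probe was not well above background, and lines group means. Filled symbols are the probe tested and open symbols a further probe of the gene; each panel has its own vertical scale. The Phox2a values lie at -0.49 and -0.41 with the MAX vector and at 0.22 and 0.35 with the empty vector.

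The 3 promoters shown are that of Phox2a, the gene with the largest difference, and those of Hand2 and Gata3, which also had lower signals on both MAX vector arrays and hold a match to a searched motif. They run from 250 bases before to 50 after the RefSeq gene start, 5′ to 3′ in the direction of the gene, in build GRCr8. Capitals mark matches to the motifs given below.
Phox2a, chr1:165590507-165590806, plus strand: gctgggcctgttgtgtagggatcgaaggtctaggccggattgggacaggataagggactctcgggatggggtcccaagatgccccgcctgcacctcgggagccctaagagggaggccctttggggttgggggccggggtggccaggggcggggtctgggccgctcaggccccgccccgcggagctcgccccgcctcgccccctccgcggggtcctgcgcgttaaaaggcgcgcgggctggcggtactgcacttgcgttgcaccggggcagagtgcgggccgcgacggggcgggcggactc
Hand2, chr16:37931439-37931738, minus strand: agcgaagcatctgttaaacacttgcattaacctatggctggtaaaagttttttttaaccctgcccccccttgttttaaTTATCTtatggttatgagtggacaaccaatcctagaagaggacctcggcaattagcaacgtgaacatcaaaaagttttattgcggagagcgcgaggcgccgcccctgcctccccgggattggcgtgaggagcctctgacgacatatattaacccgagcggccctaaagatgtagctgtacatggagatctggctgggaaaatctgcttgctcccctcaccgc
Gata3, chr17:73553298-73553597, plus strand: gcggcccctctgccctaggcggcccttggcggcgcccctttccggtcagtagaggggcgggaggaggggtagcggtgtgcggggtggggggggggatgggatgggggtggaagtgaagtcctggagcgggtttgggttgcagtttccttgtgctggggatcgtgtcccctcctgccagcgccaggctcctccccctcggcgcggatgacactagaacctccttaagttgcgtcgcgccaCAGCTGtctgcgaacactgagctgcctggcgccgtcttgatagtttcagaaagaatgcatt
Both strands of the 8 promoters were searched for CACGTG, the E-box that MYC and MAX bind, for CAGCTG, another E-box, for AGATAA, a form of the GATA site, and for the palindromic site of paired-class homeodomain dimers, with any letters in its spacer. CACGTG stood in 0 of the 8 and in 6.42% of 33465 rat promoters of that length. CAGCTG stood in 2 of 8, Gata3 and Sox11, and in 15.1% of all. AGATAA stood in 2 of 8, Hand2 and Isl1, and in 11.6% of all, and the palindromic homeodomain site in 0 of 8 and 0.406% of all. In Hand2 the match reads TTATCT, the reverse complement of AGATAA, and begins at position -172 from the start, and in Gata3 CAGCTG begins at -11. The Phox2a promoter shown had 73% G and C, and the median over all promoters was 51.7%. These are counts of letters in a 300-base window and not of bound sites.

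Phox2a encodes the homeodomain factor that binds the Dbh and Th promoters. Its probe had log2 levels of -0.49 and -0.41 on the MAX vector arrays and of 0.22 and 0.35 on the empty vector arrays. The groups were separated by more than either pair of replicates, which lay 0.079 apart with the MAX vector and 0.126 apart with the empty vector. In signal units these were 420 and 501 with the MAX vector and 818 and 779 with the empty vector, before any scaling. The log2 fold change was -0.74 ± 0.10 (SE, n = 2 arrays per group; 95% interval -1.01 to -0.462; adjusted p = 0.0864 in limma). Of all genes tested, 3.61% had a fold change as low or lower. Against the empty vector mean, MAX vector replicate 2, on the same slide, was at -0.70 and replicate 1, on the other slide, at -0.78. Normexp is a model-based background correction, run here on median spot signals with an added offset of 50 units. Phox2a passed in limma under 3 of 16 alternative settings. It did so with normexp (adjusted p = 0.0147), with a variance that follows signal level (0.015) and with only probes well above background on all arrays (0.0454). Over the 16 settings its adjusted p ran from 0.0147 to 0.449, the highest without empty vector replicate 1.

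**Figure D2:**
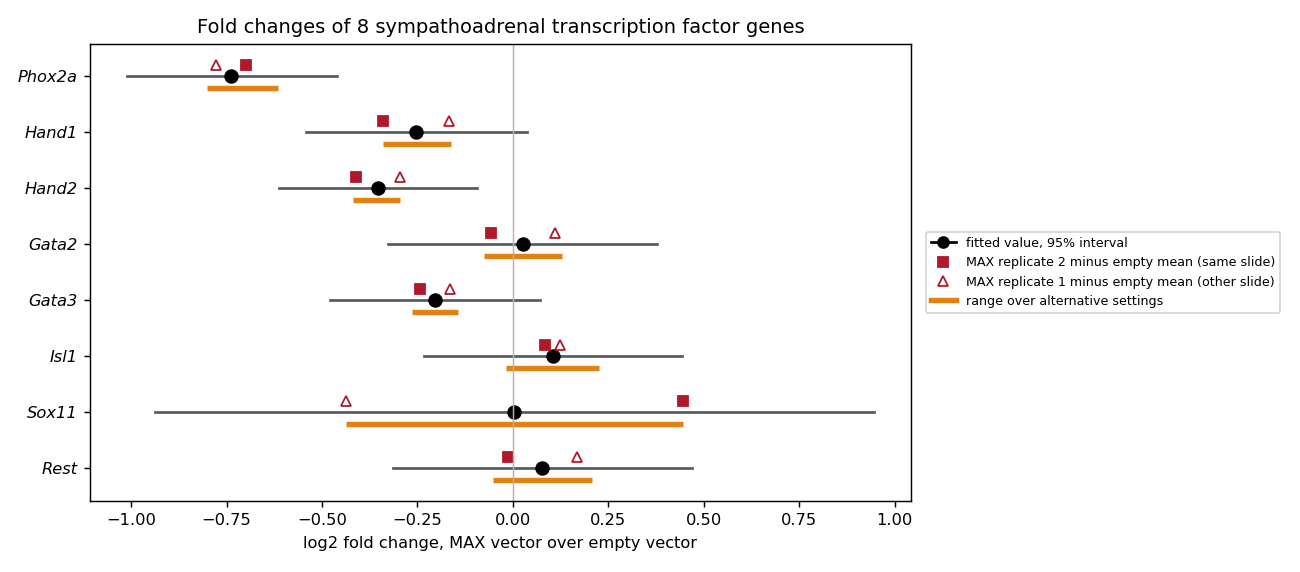
Log2 fold change, MAX vector over empty vector (horizontal axis), of the 8 genes with the 95% interval of the fit (black), each MAX vector array against the empty vector mean (red square for the array on slide 1, open triangle for the one on slide 2) and the range over the alternative settings (orange). Phox2a lies between -0.80 and -0.62 in all settings; the fitted intervals of Phox2a and Hand2 do not reach 0, and those of the other 6 genes do.

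The genes with a symbol whose values over the 4 arrays lay nearest to those of Phox2a, each centred on its own mean, were Adm, Clic4 and Jund. Their distances were 0.0333, 0.0499 and 0.0724 log2 units among 5789 genes well above background on all arrays. For Adm, which encodes the vasodilator peptide adrenomedullin, limma gave a log2 fold change of -0.74 ± 0.09 with an adjusted p of 0.073. Clic4, an intracellular chloride channel gene, had -0.72 ± 0.10 (0.0979), and Jund, which encodes an AP-1 subunit, had -0.73 ± 0.09 (0.0707). None of the 3 passed. With 4 arrays in 2 groups, likeness here means little more than a similar fold change.

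Hand2 and Hand1 encode partner-dependent helix-loop-helix factors, and HAND2 is known to act with PHOX2A on the Dbh promoter. The brighter Hand2 probe had log2 levels of -0.35 and -0.47 with the MAX vector and of -0.07 and -0.05 with the empty vector. The second Hand2 probe had -2.81 and -2.73 with the MAX vector and -2.31 and -2.25 with the empty vector. On both probes the groups did not overlap. The brighter probe gave a log2 fold change of -0.35 ± 0.09 (95% interval -0.613 to -0.0934; adjusted p = 0.22 in limma), and the second, in a fit with a row per probe, gave -0.49 ± 0.09 (adjusted p = 0.134). Within slide 1 the brighter probe gave -0.41.

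Hand1 had log2 levels of -2.03 and -2.21 with the MAX vector and of -1.87 and -1.87 with the empty vector. The 2 MAX vector arrays lay below both empty vector arrays, and they were 0.173 apart. The log2 fold change was -0.25 ± 0.10 (95% interval -0.543 to 0.0365; adjusted p = 0.355 in limma).

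Gata3 encodes a zinc finger factor known to be needed in mice for noradrenaline synthesis in the sympathoadrenal lineage. Its levels were -2.46 and -2.53 with the MAX vector and -2.23 and -2.35 with the empty vector. The groups did not overlap, but the nearest arrays of the groups lay closer together than the empty vector replicates, whose gap was 0.123 beside 0.079 with the MAX vector. The log2 fold change was -0.20 ± 0.10 (95% interval -0.479 to 0.0703; adjusted p = 0.414 in limma).

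Its paralog Gata2 had levels of 0.14 and -0.03 with the MAX vector and of 0.13 and -0.07 with the empty vector. Here the replicates of each group lay further apart than the group means. The log2 fold change was 0.03 ± 0.13 (adjusted p = 0.938 in limma), with a 95% interval from -0.326 to 0.378, so the data leave room for differences of up to about that size in either direction. The difference between Gata2 and Gata3 in fold change was not tested.

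Isl1, the LIM homeodomain gene, had levels of -1.54 and -1.58 with the MAX vector and of -1.78 and -1.54 with the empty vector. The groups overlapped, and the empty vector replicates lay 0.242 apart. The log2 fold change was 0.10 ± 0.12 (95% interval -0.234 to 0.442; adjusted p = 0.711 in limma).

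Sox11, a SoxC gene, was close to background throughout. Its probe was well above background on MAX vector replicate 2 and empty vector replicate 1 only. The levels were -6.60 and -5.72 with the MAX vector and -6.04 and -6.29 with the empty vector, which in unscaled signal was 6.09 and 12.7 units with the MAX vector and 10.7 and 7.83 units with the empty vector. The fitted log2 fold change of 0.00 ± 0.34 has a 95% interval from -0.937 to 0.945 (adjusted p = 0.996 in limma), and it was -0.44 without MAX vector replicate 2 and 0.44 without MAX vector replicate 1. No direction can be read for this gene.

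Rest, the RE1 repressor gene, had levels of -0.88 and -1.07 with the MAX vector and of -0.92 and -1.18 with the empty vector on its brighter probe. The groups overlapped. The second Rest probe had -3.71 and -3.71 with the MAX vector and -3.77 and -3.85 with the empty vector, and there the groups did not overlap, with the MAX vector slightly higher. The log2 fold changes were 0.08 ± 0.14 on the brighter probe (95% interval -0.315 to 0.469; adjusted p = 0.819 in limma) and 0.10 ± 0.09 on the second (adjusted p = 0.632 in the fit with a row per probe).

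Among the other transcription factors of this lineage and of the neural crest, Prrx1 and Ets1 rose with the MAX vector. Of 36 listed genes 15 were tested. In limma 2 rose and 0 fell, against 0.576% and 0.264% of all genes. At an unadjusted p under 0.05, 4 were higher and 3 lower, against 7.93% and 8.21% of all genes. The median log2 fold change was 0.06. Prrx1, a homeobox gene of mesenchymal cells, had levels of -1.98 and -2.09 with the MAX vector and of -4.48 and -4.62 with the empty vector. It was 5.72-fold higher (log2 fold change 2.52 ± 0.10, adjusted p = 0.0197). Ets1, an ETS factor gene of migrating neural crest, had -0.87 and -0.77 with the MAX vector and -2.76 and -2.78 with the empty vector, and was 3.86-fold higher (1.95 ± 0.09, adjusted p = 0.0197). With normexp Prrx1 had 1.32 and Ets1 1.41 on the log2 scale, and both passed. Among genes that did not pass in limma, the nuclear receptor gene Nr4a1 had 0.90 ± 0.17 (adjusted p = 0.138) and the zinc finger gene Klf4 had -0.67 ± 0.12 (0.131).

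Among 12 tested genes of 22 listed cofactors, such as LIM-only proteins, E proteins and their ID inhibitors, 0 passed in limma, against 0.84% of all genes. At an unadjusted p under 0.05, 1 was higher and 1 lower, near the 7.93% and 8.21% of all genes. The median was -0.0055. Lmo4, a LIM-only gene whose product binds GATA and LIM domain partners, had levels of -4.98 and -5.08 with the MAX vector and of -3.99 and -4.20 with the empty vector. Its log2 fold change was -0.93 ± 0.12 (adjusted p = 0.0792 in limma), and with normexp it was -0.17 (0.722). Id4, which encodes an inhibitor of helix-loop-helix factors, had 1.83 and 1.73 with the MAX vector and 1.02 and 1.03 with the empty vector, a log2 fold change of 0.76 ± 0.09 (0.0707). Id2 had -0.24 ± 0.14 (0.482).

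Of the REST corepressor genes, 11 of 26 were tested and 0 passed in limma, against 0.84% of all genes. At an unadjusted p under 0.05, 2 were higher and 0 lower, against 7.93% and 8.21% of all genes. The median was 0.09. For Rcor2, a CoREST subunit gene, the log2 fold change in limma was 0.38 ± 0.10 (adjusted p = 0.211). The histone methyltransferase gene Ehmt2 had 0.33 ± 0.09 (0.244).

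The noradrenergic and chromaffin genes, many of them known targets of PHOX2, HAND2 and GATA factors, did not move in 1 direction. Of 34 listed, 25 were tested. In limma 2 rose and 1 fell, against 0.576% and 0.264% of all genes. At an unadjusted p under 0.05, 3 were higher and 7 lower, against 7.93% and 8.21%. A negative fold change was found in 16 of 25, against 53.5% of all genes, and the median was -0.11. Ret and Chrnb4, 2 of the 25, passed the filter on dim probes through the empty vector arrays alone. Both are among the 7 lower and the 16 negative genes, so those counts rest in part on that filter. Th, which encodes the first enzyme of catecholamine synthesis, had levels of 0.17 and 0.08 with the MAX vector and of -1.94 and -2.10 with the empty vector. It was 4.42-fold higher (2.15 ± 0.11, adjusted p = 0.0203 in limma). The Phox2a signal was lower on both MAX vector arrays but did not pass, and a link between Th and Phox2a was not tested. Npy, the neuropeptide Y gene, had -0.96 and -1.20 with the MAX vector and -4.35 and -4.16 with the empty vector, and was 9.05-fold higher (3.18 ± 0.14, adjusted p = 0.0197). With normexp its log2 fold change was 1.90. Ddc, the gene of aromatic amino acid decarboxylase, had 2.96 and 2.94 with the MAX vector and 4.03 and 4.04 with the empty vector, and fell by 1.08 ± 0.08 (adjusted p = 0.0391). Below the threshold, Prph, which encodes peripherin, had -0.92 ± 0.09 (0.0521), Rgs4 0.75 ± 0.12 (0.108) and Stmn2, a microtubule regulator gene, -0.63 ± 0.13 (0.153). Dbh, the textbook PHOX2A target, had levels of -7.85 and -5.57 with the MAX vector and of -4.81 and -5.80 with the empty vector. The groups overlapped, and the log2 fold change was -1.41 ± 0.89 (0.511).

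Of 69 listed genes known or reported as RE1 genes repressed by REST, 41 were tested. In limma 1 fell, against 0.264% of all genes, and apart from Snap25, below, none rose, against 0.576%. At an unadjusted p under 0.05, 11 were lower and 5 higher, Snap25 included, against 8.21% and 7.93%. Their median was -0.14, with 25 of 41 negative against 53.5% of all genes. Snap25, a membrane fusion gene, had levels of -5.20 and -4.91 with the MAX vector and was well above background on neither empty vector array, so it was at least 2.37-fold higher against the lowest signal well above background. It passed the filter on dim probes through the MAX vector arrays alone, so its value is a bound with no test read from it. With normexp its log2 fold change was 0.43. Nefm, the middle neurofilament subunit gene, had -0.48 and -0.42 with the MAX vector and 2.05 and 1.87 with the empty vector, and fell by 2.40 ± 0.11 (adjusted p = 0.0197). Elavl4, a neuronal RNA-binding protein gene, had -1.31 ± 0.14 (0.0579), the sodium channel subunit gene Scn3b -0.92 ± 0.27 (0.247), and Bsn, a presynaptic scaffold gene, 0.99 ± 0.65 (0.523). The Scn3b value was -0.30 with normexp. Against the empty vector mean, Scn3b was at -0.57 on MAX vector replicate 2 and at -1.26 on replicate 1. The Bsn value rested on MAX vector replicate 1, at -1.83. Replicate 2, at -3.60, lay within the empty vector values of -3.57 and -3.83. With the slide or the replicate number as a block, or with either empty vector array left out, none of Prrx1, Ets1, Th, Npy, Ddc and Nefm passed. Without MAX vector replicate 2 all but Ddc did, at an adjusted p of 0.049 in limma.

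**Figure D3:**
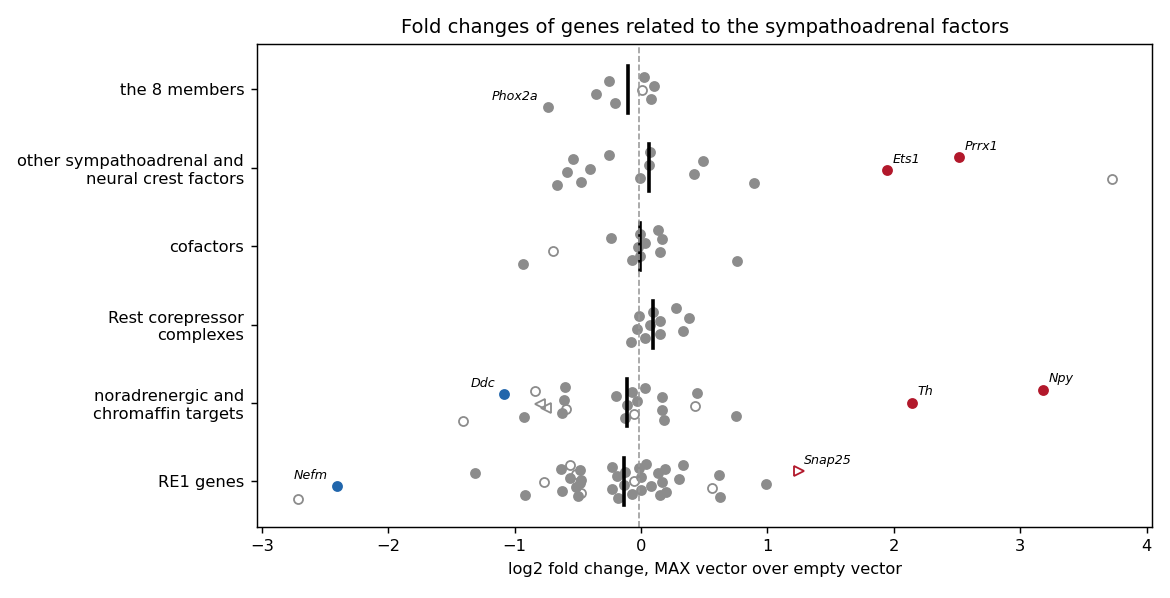
Log2 fold change, MAX vector over empty vector (horizontal axis), of the genes tested in each list (rows; vertical scatter within a row has no meaning). Red and blue are genes past the limma threshold, higher or lower, grey genes that did not pass; open symbols were not well above background on every array, triangles are bounds for genes such as Snap25 that were well above background in 1 group only, black bars are medians and the dashed line is the median of all genes, -0.019. Th and Npy lie to the right and Ddc to the left in the same list. Snap25 is coloured as past the threshold, but no test is read from it.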

How the data were processed

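The deposited scanner files hold spot intensity, written per the file headers by Feature Extraction 10.7.3.1 with annotation of build rn4; the authors' processed intensity has the background subtracted and a within-array trend removed, with no scaling across arrays. A table of log2 values deposited by the authors has column medians of -0.0052 and -0.0066 for the MAX vector and of -0.033 and -0.011 for the empty vector. Its array differences matched those used here (Pearson r = 0.999985 over all values), so its scale and direction are known, while the baseline of each probe is unknown.

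Spots with an outlier flag were left out (89 of 41012 probes lost), spots of a probe were averaged as log2, and the 75th percentile was subtracted. Symbols came from RefSeq accessions matched without versions to the table of GRCr8 (10768 probes, 26.3%); no coordinates of probes are given. Tests used 28564 probes well above background on at least 2 arrays and 1 probe per gene, the brightest (25356 genes, 6316 with a symbol), in limma 3.58.1 (R 4.3.3, lmFit and eBayes, 3.94 degrees of freedom), with Benjamini-Hochberg adjustment over all genes and a threshold of 0.05. With 4 arrays, their number limits the precision; an exact permutation test of 2 against 2 cannot go below p = 0.333 and was not used. The files hold no mean spot signal, so normexp used the median signal and the median background, in place of the planned mean.

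The members and lists were chosen with earlier results of these data known. Named genes are the 8 genes, all that passed in each related list, and the 3 largest changes among the other genes well above background on all arrays; some genes that this rule names are not reported here. Dbh was named after its values were seen. Lmo1 and Nppb were too. In 5 simulations with this design on 25356 genes, only a small share of the genes was changed. The fit recovered 0% of the 1.67-fold changes, 0.8% of the 2-fold, 64.4% of the 4-fold and 92.4% of the 16-fold ones. In the data 16.1% of genes had an unadjusted p under 0.05 in limma. Recovery after adjustment depends on how many genes change, so these percentages need not hold for the data. Same-numbered deviations from the group means had a correlation of -0.0178 across genes. MAX vector replicate 1 was alone on its slide, so this value does not show whether replicate numbers pair the arrays. The labels do not say which replicate is which passage.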

Additional observations from a re-analysis of the deposited data

How the results depend on the processing

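All 8 genes were refitted under 16 settings (15 for Sox11, which has no value among probes well above background on all arrays). Phox2a, Hand1, Hand2 and Gata3 kept a negative fold change in all 16. Gata2, Isl1, Sox11 and Rest, whose groups overlapped, changed sign in some: Gata2 to -0.058 with the slide as a block or without MAX vector replicate 1 and -0.076 without empty vector replicate 2; Isl1 to -0.017 without empty vector replicate 1; Sox11 to -0.026 with normexp, -0.12 without empty vector replicate 2 and -0.44 without MAX vector replicate 2; and Rest to -0.0015 with normexp, -0.014 with the slide block or without MAX vector replicate 1 and -0.053 without empty vector replicate 2. With 1 array left out, Gata2 ran from -0.076 to 0.13, Isl1 from -0.017 to 0.23, Sox11 from -0.44 to 0.44 and Rest from -0.053 to 0.21. The cause was not tested. The slide block gives the array alone on its slide no weight, so it equals leaving out MAX vector replicate 1. Of the 8 genes, 1 passed, Phox2a, with normexp, with the intensity trend and with probes above background on all arrays. These settings called 794, 955 and 515 of all genes, against 213 in the first fit. In the other settings the count of the 8 was 0.

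Over all genes, 213 passed in limma; 794 did with normexp, 955 with the trend, 541 with median scaling, 515 with probes above background on all arrays, 8 with the slide block, 0 with no filter (4033 at an unadjusted p under 0.05) and 0 with the replicate block (3885), and 0 to 144 with 1 array left out (0 without either empty vector array, 8 without MAX vector replicate 1). Of the 2 RE1 genes past the threshold in the first fit, Snap25 passed the filter on dim probes through 1 group alone. It is also in the RE1 counts given next for trend and median scaling, not in that for normexp. No test is read from it. For the related lists, calls with normexp, trend and median scaling were 5, 5 and 3 of other transcription factors, 1, 1 and 0 of cofactors, 6, 6 and 5 of noradrenergic genes and 5, 6 and 4 of RE1 genes; cofactors had 2 with probes above background on all arrays. No list had a call (0) with no filter, the slide block or the replicate block, and leaving out 1 array gave 0 to 2 in each of these lists but cofactors. Signal over background limits Sox11, Dbh and Snap25.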

Other observations

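Lmo1, a LIM-only cofactor gene known from neuroblastoma, was in the list of other lineage factors but outside the rule for named genes, and was chosen after its values were seen. Its log2 levels were -2.40 and -2.39 with the MAX vector and -6.63 and -5.61 with the empty vector, where 1 of 2 arrays was well above background. The log2 fold change was 3.72 ± 0.37 (adjusted p = 0.0559 in limma) and 1.45 with normexp, where it passed. Nppb, the natriuretic peptide gene in the RE1 list, likewise chosen after its values were seen, had -5.17 and -5.74 with the MAX vector, with 1 of 2 arrays well above background, and -2.54 and -2.93 with the empty vector, a log2 fold change of -2.72 ± 0.26 (adjusted p = 0.0521 in limma).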
